A study of Mus musculus with 6 samples.

Results

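The Kruppel-like factor (KLF) genes are described here in mouse cells that lack p53 and carry a floxed Mdm2 gene, the gene of the ubiquitin ligase that restrains p53. The 10 genes Klf2, Klf3, Klf4, Klf5, Klf6, Klf7, Klf9, Klf10, Klf13 and Klf15 were taken by name, out of 17 Klf genes looked up and 15933 genes tested. The estimated counts of all transcripts of each gene were summed in each of 6 RNA libraries, and all 10 genes passed the filter on low counts. The libraries labelled Mdm2 deletion come from cells given 4-hydroxytamoxifen (4-OHT, 1 mM per the labels), which activates the Cre recombinase CreERT2. The libraries labelled control come from cells given ethanol vehicle. All cells were Mdm2 fl/fl and p53-/- by label, and each arm has 1 library labelled p53-null fibroblasts, 1 labelled p53-null T cell lymphoma and 1 labelled p53-null sarcoma. The lymphoma and sarcoma cells came from tumours kept in short-term culture, and the fibroblasts came from ear punches of adult mice. Exposure lasted 6 h for the lymphoma label and 48 h for the sarcoma and fibroblast labels. Cells had received a retrovirus for CreERT2 with GFP, or for GFP alone, and the vector behind each library is not stated. A 4-OHT control without CreERT2 is not among the labelled samples, so 4-OHT exposure and the labelled deletion cannot be told apart. Values of single libraries are given in the order fibroblast, lymphoma, sarcoma throughout.

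KLF proteins bind GC-rich and CACCC-containing DNA through zinc fingers at their C-terminal end, next to the related Sp factors, and their N-terminal parts decide which cofactors they recruit. Klf2, Klf4, Klf5, Klf6 and Klf7 belong to a group known mainly for activating transcription with histone acetyltransferases, Klf3 to a group that recruits the corepressor CtBP, and Klf9, Klf10 and Klf13 to a group that recruits Sin3. Several of the genes are immediate early genes, whose RNA is short-lived and follows growth factors, shear stress, steroid hormones or inflammatory signals.

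The labels were checked first. Mdm2 RNA stood at 30.5, 31.1 and 31.1 CPM (counts divided by the library size, with sizes scaled by the trimmed mean of M values, TMM) with the deleted label, against 28.4, 28.0 and 28.5 CPM with the vehicle label. It was therefore not lower where the label says deleted (log2 fold change 0.13 ± 0.05 (SE), adjusted p = 0.0539 by edgeR's quasi-likelihood test; 0.0349 without the cell type label as a block), and the groups are called by their labels throughout. Mdm2 counts were summed over all its transcripts, and the floxed part was not counted apart. The deletion itself was therefore not tested. The deposited values went against the T cell lymphoma label and differed little between the cell type labels. The T cell genes Cd3d, Cd3e and Cd247 had a count of 0 in every library, those labelled T cell lymphoma included. Of the 6 skeletal muscle markers, Myod1, Myog and Ckm were also at 0, but the sarcoma label does not name a muscle tumour. The 7 fibroblast markers summed to 7395 to 7557 CPM in the libraries labelled deleted and to 13041 to 13511 CPM in those labelled vehicle, whichever cell type the label gave. Across all genes, 0.308% differed between the 3 cell type labels, whereas 25.0% were higher and 24.6% lower in the libraries labelled deleted (edgeR, adjusted p under 0.05). The libraries held 26243064 to 37517726 estimated counts each.

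Stretches from 200 to 51 bases before the RefSeq start sites (GRCm38.p6) of 4 of the genes are shown. Klf4 differed most between the arms, and Klf6 had the highest level. Klf2 holds a MEF2 string, linked to a known inducing pathway, and Klf9 holds a loose match to the AP-1 site. Capitals mark GGGCGG or its complement CCGCCC (the GC box bound by Sp and KLF proteins) in Klf4, Klf2 and Klf6, the MEF2 site CTAAATTTAG in Klf2, and in Klf9 an overlap of TGAATCA (a match to TGANTCA, the AP-1 string) with CACCC.
Klf4, chr4:55532526-55532675, minus strand: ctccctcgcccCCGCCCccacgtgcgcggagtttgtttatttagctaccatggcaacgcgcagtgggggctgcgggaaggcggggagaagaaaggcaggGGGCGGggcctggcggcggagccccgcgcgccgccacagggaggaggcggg
Klf2, chr8:72318862-72319011, plus strand: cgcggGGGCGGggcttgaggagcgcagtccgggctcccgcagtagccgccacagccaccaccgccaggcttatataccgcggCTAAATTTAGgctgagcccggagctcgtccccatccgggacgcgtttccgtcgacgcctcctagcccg
Klf9, chr19:23141026-23141175, plus strand: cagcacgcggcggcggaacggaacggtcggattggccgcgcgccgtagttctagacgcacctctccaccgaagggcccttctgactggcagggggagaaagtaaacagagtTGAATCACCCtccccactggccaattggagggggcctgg
Klf6, chr13:5861289-5861438, plus strand: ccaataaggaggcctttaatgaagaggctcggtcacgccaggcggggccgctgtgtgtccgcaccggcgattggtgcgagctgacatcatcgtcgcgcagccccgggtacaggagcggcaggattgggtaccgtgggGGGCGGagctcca
Promoter windows of 300 bases, from 250 before to 50 after the start site, were on hand for 8 of the 10 genes, Klf5 and Klf10 being without one. Their GC content lay between 58.3% (Klf7) and 76.7% (Klf3), against a median of 52.7% over 32851 promoters, and they held 16 to 47 CG dinucleotides against a median of 7. GGGCGG, searched on both strands, was found in 7 of the 8 windows, all but that of Klf9, and in 35.7% of all promoters. The Klf4 window held 4 such matches and no CACCC, a string that 57.5% of all promoters hold. The MEF2 site of Klf2 lay 118 to 109 bases before the start site, and 3.19% of promoters hold one. The TGANTCA match of Klf9 lay 89 to 83 bases before the start site and shares 2 bases with the CACCC at 84 to 80, and 7.81% of promoters hold this string. TATAAA (13.6% of promoters), the CArG box bound by SRF (1.63%), the kappaB site (4.51%), ACANNNTGT (6.85%) and TGACGTCA (1.79%) were found in none of the 8 windows. These are matches of letters in one window per gene, and binding was not measured.

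Of the 10 genes, 8 were higher in the libraries labelled deleted and 2 were not called, and their median log2 fold change was 0.35 against 0.02 over all genes tested. The call of higher applied to 25.0% of all genes. None was lower by edgeR as described, DESeq2 or limma, and none had an unadjusted p under 0.05 in that direction by edgeR. Klf3 was called lower by edgeR with no filter on low counts and without the lymphoma pair, as given with that gene. In 9 of the 10 genes the CPM of every deleted-labelled library lay above that of every vehicle-labelled library, which held for 27.7% of all genes. For Klf13 this margin vanished on rounding, with 5.52 CPM on both sides. On the TPM scale 8 of the 10 genes were apart in this way, and the share of all genes was not taken on that scale. By CPM the reverse held for 27.8% of all genes and for none of the 10 genes, but it did hold for Klf11 and Klf12, which are given below. Most changes were small, since 3 of the 8 called genes exceeded 0.5 on the log2 scale. In bulk RNA, fewer cells with a transcript and less transcript per cell cannot be told apart. Beyond the cell type names, no label states that the libraries of an arm came from independent cultures, so p-values here reflect the spread among these 6 libraries, which may be technical.

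**Figure D1:**
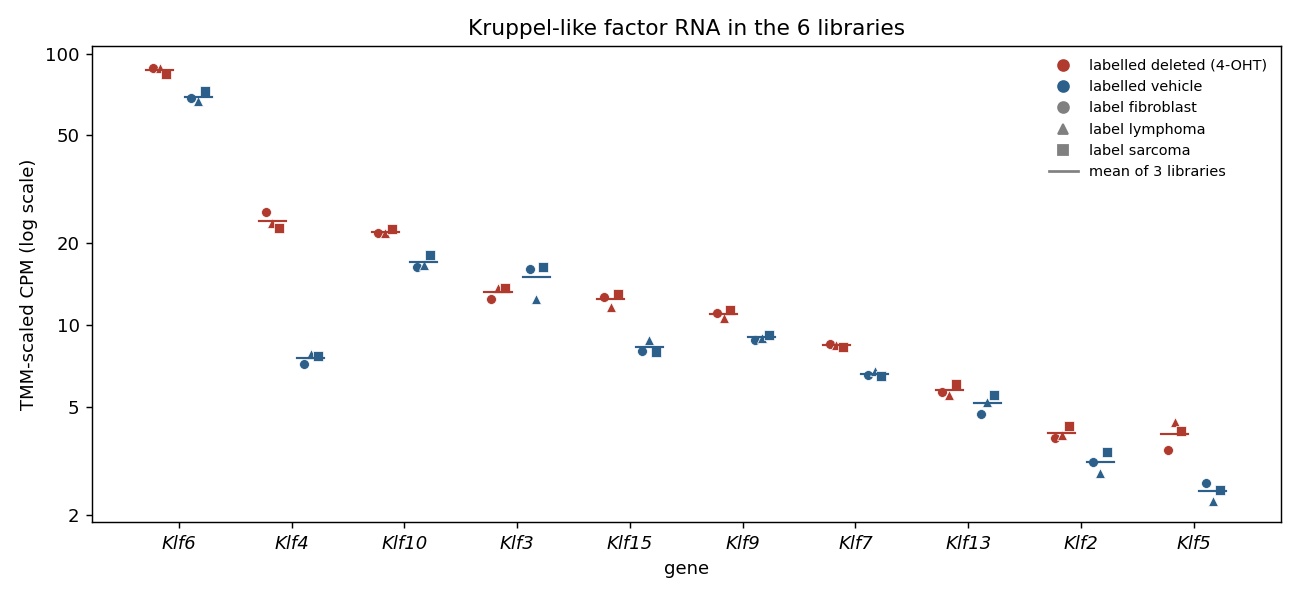
TMM-scaled CPM (log scale) of each Kruppel-like factor gene in the 3 libraries labelled deleted (red) and the 3 labelled vehicle (blue), with the marker shape giving the cell type label and the bar the mean. Klf4 shows the widest gap, 22.8 to 26.1 CPM against 7.20 to 7.83 CPM, and Klf3 is the gene whose groups overlap.

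Klf4 (ENSMUSG00000003032.8, chromosome 4, 55527143 to 55532466, minus strand, GRCm38), one of the pluripotency reprogramming factors and a regulator of epithelial barriers and macrophages, changed most. It had 26.1, 23.8 and 22.8 CPM with the deleted label, against 7.20, 7.83 and 7.73 CPM with the vehicle label. Every deleted-labelled library lay about as high as the others, far above the vehicle-labelled ones, with no overlap. The means were 24.2 ± 1.68 CPM and 7.58 ± 0.340 CPM (SD, n = 3 each), and the log2 fold change was 1.67 ± 0.07 (SE), or 3.18-fold (edgeR, adjusted p = 7.24e-09). This change ranked 392 of the 15933 genes tested, above 97.5% of them. Within the labelled pairs the CPM ratio was 3.62 (95% Clopper-Pearson interval 3.10 to 4.24) for fibroblast, 3.03 (2.61 to 3.54) for lymphoma and 2.95 (2.56 to 3.40) for sarcoma. These intervals cover counting error only and overlap one another. Klf4 was the only one of the 10 genes at least 2-fold higher in each pair, which 3.73% of all genes were. Every read assigned to Klf4 went to 1 of its 3 transcripts, Klf4-201 with 1452 coding bases, and the shorter targets Klf4-202 and Klf4-203 had a count of 0 in all libraries.

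Klf5 (ENSMUSG00000005148.8, chromosome 14, 99298691 to 99315036, plus strand), which drives proliferation in intestinal crypts and in smooth muscle, had the next largest change. It had 3.46, 4.40 and 4.08 CPM with the deleted label, against 2.63, 2.26 and 2.47 CPM with the vehicle label. The groups did not overlap, although the fibroblast pair lay closest together. Klf5 was higher by 0.69 ± 0.14 (SE) on the log2 scale, or 1.62-fold (edgeR, adjusted p = 0.00158), above 92.5% of genes tested, and limma on log2(TPM + 1) gave an adjusted p of 0.0707. The ratio was 1.31 (0.966 to 1.80) in the fibroblast pair, 1.94 (1.43 to 2.67) in the lymphoma pair and 1.65 (1.25 to 2.20) in the sarcoma pair. Klf5 thus rested on few reads, and its interval in the fibroblast pair includes 1. The smallest count of any of the 10 genes in any library was 67 and belonged to Klf5, whereas the largest, 2741, belonged to Klf6.

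Klf6 (ENSMUSG00000000078.7, chromosome 13, 5861482 to 5870394, plus strand), a widely expressed factor linked to injury responses and stellate cell activation in liver, was the most abundant of the genes. It had 88.8, 88.8 and 83.8 CPM with the deleted label, against 68.5, 66.7 and 72.8 CPM with the vehicle label. The sarcoma pair was the closest, with its deleted-labelled library the lowest and its vehicle-labelled library the highest of each arm, and the groups did not overlap. Klf6 was thus higher by 0.33 ± 0.05 (SE) on the log2 scale, or 1.26-fold, with an adjusted p of 0.000156 (edgeR), and limma on log2(TPM + 1) gave 0.0759. Pair ratios ran from 1.15 (1.09 to 1.22) for sarcoma to 1.33 (1.25 to 1.42) for lymphoma.

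Klf7 (ENSMUSG00000025959.13, chromosome 1, 64029447 to 64122282, minus strand), needed for axon outgrowth in the mouse, varied little within arms. Its level was 8.51, 8.49 and 8.34 CPM with the deleted label, against 6.57, 6.78 and 6.48 CPM with the vehicle label. The groups were well apart, and the log2 fold change was 0.35 ± 0.08 (SE), with an adjusted p of 0.00396 (edgeR). The call was lost by DESeq2 (adjusted p = 0.0991) and by limma on log2(TPM + 1) (adjusted p = 0.331). The deposited TPM values (transcript abundance per length, scaled to a fixed total) of Klf7 did overlap, at 4.88 to 8.15 TPM with the deleted label and 4.89 to 4.91 TPM with the vehicle label. A 334-base target, Klf7-203, held 0% to 43.2% of the gene's TPM depending on the library. Klf2 (ENSMUSG00000055148.7, chromosome 8, 72319033 to 72321656, plus strand), a shear stress gene of endothelium that also keeps naive T cells quiescent, had 3.83, 3.95 and 4.26 CPM with the deleted label, against 3.12, 2.87 and 3.43 CPM with the vehicle label. The groups did not overlap, but the gap was smaller than the differences within an arm. Its log2 fold change of 0.35 ± 0.12 (SE) had an adjusted p of 0.0267 (edgeR). It lay between 0.0677 and 0.138 when any 1 labelled pair was left out, and between 0.0122 and 0.286 over all alternatives.

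Among the genes of the Sin3-recruiting group, Klf10 (ENSMUSG00000037465.10, chromosome 15, 38291463 to 38300706, minus strand), known as a TGF-beta inducible early gene, was higher. It had 21.8, 21.9 and 22.6 CPM with the deleted label, against 16.4, 16.6 and 18.1 CPM with the vehicle label. The arms stood apart in every pair by a similar step, with ratios between 1.25 and 1.33. Its shared log2 fold change of 0.38 ± 0.06 (SE), or 1.30-fold, had an adjusted p of 0.000262 (edgeR), and limma on log2(TPM + 1) gave 0.0506. Klf9 (ENSMUSG00000033863.2, chromosome 19, 23141226 to 23168134, plus strand), induced by glucocorticoid and thyroid hormone, had 11.1, 10.6 and 11.4 CPM with the deleted label, against 8.85, 8.98 and 9.21 CPM with the vehicle label. Its libraries hardly varied within an arm and the arms did not overlap, and the log2 fold change of 0.29 ± 0.07 (SE) had an adjusted p of 0.00621 (edgeR). The call of Klf9 was lost by DESeq2 (adjusted p = 0.131) and by limma on log2(TPM + 1) (adjusted p = 0.0673). Klf13 (ENSMUSG00000052040.10, chromosome 7, 63886351 to 63938915, minus strand), described in human T cells as an activator of the chemokine gene CCL5, was not called. Its level was 5.70, 5.52 and 6.07 CPM with the deleted label, against 4.70, 5.23 and 5.52 CPM with the vehicle label. The lowest value with the deleted label and the highest with the vehicle label round to the same 5.52 CPM, so the arms touched. Klf13 had a log2 fold change of 0.16 ± 0.10 (SE) and, by edgeR, an adjusted p of 0.195.

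Klf15 (ENSMUSG00000030087.11, chromosome 6, 90462576 to 90475238, plus strand), a glucocorticoid-induced regulator of amino acid breakdown in liver and muscle, was higher by the next margin after Klf5. It had 12.7, 11.6 and 13.1 CPM with the deleted label, against 8.04, 8.81 and 7.99 CPM with the vehicle label. The lymphoma pair was the closest, with the lowest value of one arm and the highest of the other, and the arms did not overlap. The log2 fold change was 0.59 ± 0.08 (SE), or 1.51-fold, with an adjusted p of 0.000106 (edgeR), above 91.0% of genes tested. Pair ratios were 1.58 (1.34 to 1.87) for fibroblast, 1.32 (1.12 to 1.57) for lymphoma and 1.64 (1.40 to 1.91) for sarcoma. Klf15 has 4 transcripts with the same coding sequence of 1248 bases, among which the reads were split evenly, so these data say nothing on which start site was used.

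Klf3 (ENSMUSG00000029178.14, chromosome 5, 64803388 to 64832901, plus strand), the repressor that recruits CtBP and limits fat cell formation in the mouse, was the one gene of the 10 with a negative log2 fold change. It had 12.5, 13.7 and 13.7 CPM with the deleted label, against 16.1, 12.5 and 16.4 CPM with the vehicle label. The vehicle-labelled lymphoma library lay as low as the lowest deleted-labelled one, so the arms overlapped. The log2 fold change was -0.18 ± 0.09 (SE), with an adjusted p of 0.124 (edgeR). The ratio was 0.773 (0.672 to 0.889) in the fibroblast pair and 0.832 (0.730 to 0.947) in the sarcoma pair, and 1.10 (0.945 to 1.27) in the lymphoma pair. Without the lymphoma pair the log2 fold change of Klf3 was -0.32 with an adjusted p of 0.0128 (edgeR), and with no filter on low counts it was -0.20 with an adjusted p of 0.0234 (edgeR). Over all alternatives its adjusted p lay between 0.0128 and 0.752.

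**Figure D2:**
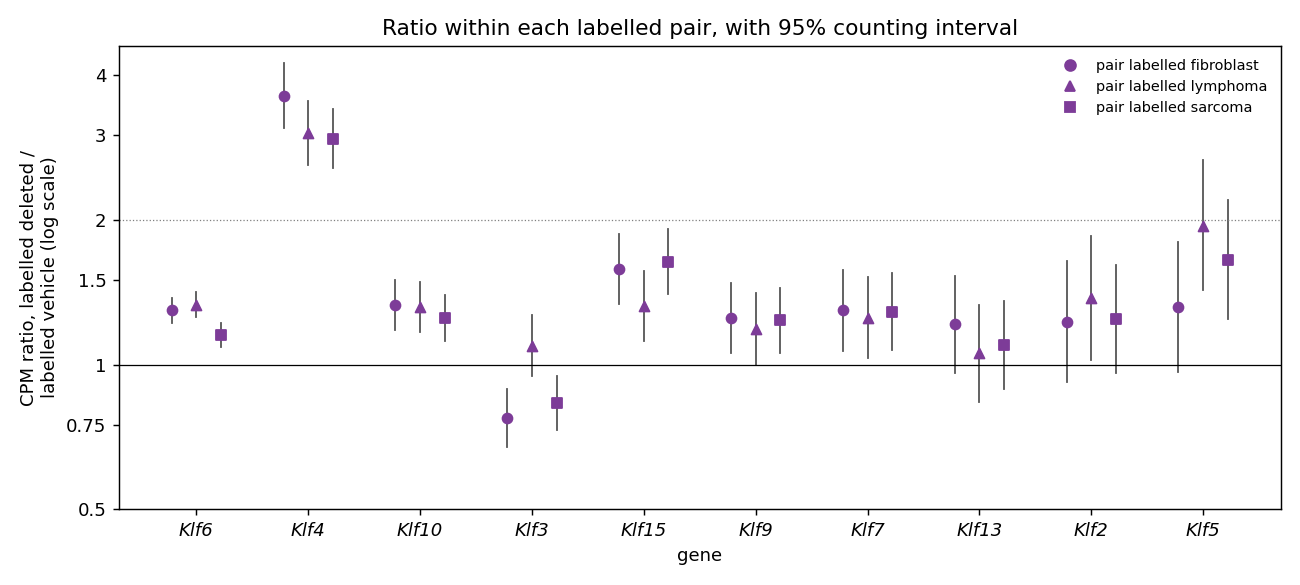
Ratio of TMM-scaled CPM, deleted label over vehicle label (log scale), for each gene in the 3 labelled pairs (fibroblast, lymphoma, sarcoma), with 95% counting intervals as bars. Only Klf4 lies above the dotted line at 2-fold in each pair, and Klf3 lies on opposite sides of 1 in different pairs.

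The 3 labelled pairs gave similar ratios. The fibroblast pair had 9 of the 10 genes above a ratio of 1 and a median log2 ratio of 0.38, the lymphoma pair 10 and 0.40, and the sarcoma pair 9 and 0.32. Levels did not differ detectably by cell type label once the arm was taken out. By edgeR none of the 10 genes was called (adjusted p 0.827 to 0.997), none had an unadjusted p under 0.05 by edgeR or limma, and neither the lymphoma nor the sarcoma label differed from the fibroblast label by more than 0.16 on the log2 scale. The background of this test was 0.308% of genes. The effect of 4-OHT at 6 h (lymphoma label) was set against that at 48 h (the other labels) with an interaction term on 1 residual degree of freedom, for which exposure time and cell type label cannot be told apart. None of the 10 genes was called, against 0.0628% of all genes. Klf3 had the one unadjusted p under 0.05, with a difference of 0.45 ± 0.17 (SE) in log2 fold change between 6 h and 48 h (edgeR, unadjusted p = 0.0155, adjusted p = 1), and limma likewise gave 1 gene with an unadjusted p under 0.05. Within an arm the coefficient of variation of CPM lay between 1.10% and 14.5%, with a median of 5.31%, and in 11 of 20 sets of 3 libraries it did not exceed what counting alone gives. The vehicle-labelled Klf3 set was the most variable, at 14.5% against 4.55% from counting.

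In level per length, Klf6 stood far above the rest. By deposited TPM, summed over transcripts, it had a mean of 48.4 TPM in the libraries labelled deleted and 37.7 TPM in those labelled vehicle, which was 38.9% and 38.2% of the TPM of all Klf genes. Klf4 had 8.25 TPM with the deleted label and 2.53 TPM with the vehicle label, so that it ranked 5 among the 10 genes with the deleted label and 8 with the vehicle label. Its share of all Klf TPM was 6.64% ± 0.389 with the deleted label and 2.57% ± 0.133 with the vehicle label (SD, n = 3 each). The order with the deleted label was Klf6, Klf13, Klf3, Klf9, Klf4, Klf10, Klf7, Klf15, Klf2 and Klf5, and neighbours from Klf9 to Klf15 overlapped in TPM. With the vehicle label it was Klf6, Klf3, Klf13, Klf9, Klf10, Klf7, Klf15, Klf4, Klf2 and Klf5, where Klf3 and Klf13 were the neighbours that overlapped. The place of Klf13 rested on a 159-base target, Klf13-204, which held 60.8% to 71.8% of the gene's TPM but 8.84% to 14.9% of its counts. By CPM per kilobase of the longest coding target, Klf13 ranked 8 with the deleted label and 7 with the vehicle label, whereas Klf4 ranked 2 and 8. Together the 10 genes summed to 194, 193 and 190 CPM with the deleted label, against 142, 139 and 150 CPM with the vehicle label.

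**Figure D3:**
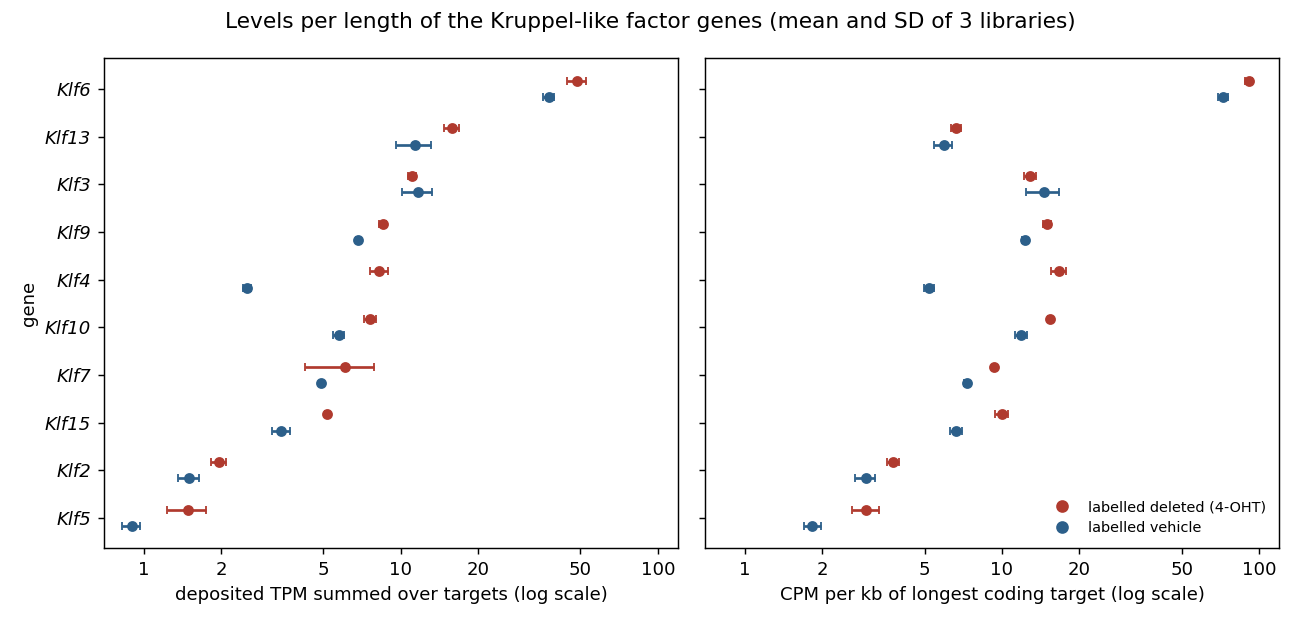
Mean and SD (n = 3 libraries) of deposited TPM (left) and of CPM per kilobase of the longest coding target (right), both on log scales, with libraries labelled deleted in red above those labelled vehicle in blue. Klf6 is highest on both scales, and Klf13 ranks 2 and 3 on the TPM scale but 8 and 7 on the other.

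Reads could be assigned to single Klf genes with little ambiguity. None of the 10 genes shared a 31-base window of its quantified targets with any other gene on either strand. Of their 24 transcript targets, 2 had a count of 0 in every library, and 5 of the 10 genes had 1 target.

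Of the other 7 Klf genes 3 were tested, of which 2 were lower and none was higher. Klf12, a CtBP-recruiting repressor, had 4.99, 6.01 and 6.10 CPM with the deleted label, against 8.50, 7.80 and 9.37 CPM with the vehicle label, and fell by 0.59 ± 0.10 (SE) on the log2 scale (adjusted p = 0.000406 by edgeR). Klf11, the closest relative of Klf10 and also TGF-beta inducible, had 7.19, 8.61 and 7.69 CPM with the deleted label, against 10.7, 10.8 and 10.4 CPM with the vehicle label, and fell by 0.45 ± 0.08 (SE) on the log2 scale (adjusted p = 0.000813 by edgeR). In both genes every vehicle-labelled library was above every deleted-labelled one, so Klf10 and Klf11 moved in opposite directions. Klf16 was not called, with a log2 fold change of 0.07 ± 0.11 (SE) and an adjusted p of 0.604 (edgeR). Klf1 and Klf8, an erythroid factor and a CtBP-recruiting factor, had too few counts to be tested. Klf14 and Klf17 had a count of 0 in all libraries, which allows up to 0.0797 to 0.113 CPM per library (3 counts). Of the 13 Klf genes tested, 8 were higher, 2 lower and 3 not called. Grouped by cofactor, with the groups drawn up after the values were known, 5 of 5 tested activators were higher, of 5 tested Sin3-recruiting genes 2 were higher and 1 was lower, and of 2 tested CtBP-recruiting genes 1 was lower. These groups hold few genes, and over all genes 25.0% were called higher and 24.6% lower.

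The Sp genes, whose proteins bind the same GC boxes, were lower or not called. Sp3 had 162, 164 and 166 CPM with the deleted label, against 217, 213 and 230 CPM with the vehicle label. Its arms were far apart relative to their spread, and it fell by 0.42 ± 0.04 (SE) on the log2 scale (adjusted p = 8.93e-06 by edgeR). Sp4 fell by 0.42 ± 0.12 (SE) and Sp1 by 0.17 ± 0.04 (SE) on the log2 scale (adjusted p = 0.0106 and 0.00697 by edgeR). The adjusted p of Sp4 was 0.0622 without the fibroblast pair and 0.121 by DESeq2, and that of Sp1 was 0.0786 without the lymphoma pair and 0.0800 by DESeq2. Sp2 was not called, with a log2 fold change of -0.13 ± 0.15 (SE). Sp5 and Sp9 had a count of 0 in all libraries, and Sp6, Sp7 and Sp8 had too few counts to be tested.

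**Figure D4:**
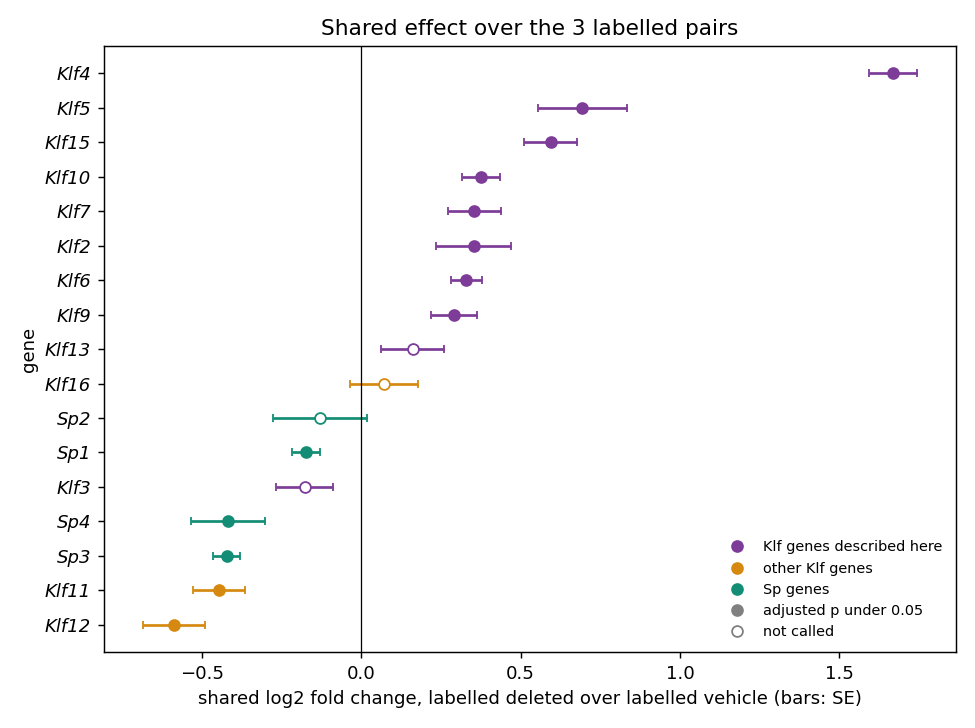
Shared log2 fold change (deleted label over vehicle label, bars are SE) of the tested Klf and Sp genes, with filled points for an adjusted p under 0.05 by edgeR. The called Klf genes described here lie between 0.29 and 1.67, whereas Klf11, Klf12, Sp1, Sp3 and Sp4 lie below 0.

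Genes that act with or upstream of the family were described by lists, to be read against the 25.0% of all genes called higher and the 24.6% called lower by edgeR. Of 7 tested coactivators 4 were higher and none lower (median log2 fold change 0.22). The nuclear receptor coactivator Ncoa3 had 75.7 ± 1.53 CPM with the deleted label and 49.9 ± 2.44 CPM with the vehicle label (SD, n = 3 each), a log2 fold change of 0.60 with an adjusted p of 7.02e-07 (edgeR), and the acetyltransferase gene Kat2a had 0.46. Of 7 corepressors 2 were lower and none higher (median -0.04), namely the deacetylase genes Hdac2 (-0.22) and Hdac3 (-0.21), while the CtBP and Sin3 genes were not called. Of 7 ubiquitin ligase genes reported to turn over KLF proteins, 2 were higher and 2 lower (median 0.02). Smurf1 (0.63) and Fbxw7 (0.34) were higher, and Fbxo32 (-0.71) and Stub1 (-0.30) were lower. Over all genes tested the median was 0.02.

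The signalling routes known to induce Klf genes gave mixed counts. Of 12 tested genes around serum response factor (SRF) and the immediate early response, 7 were higher and none was lower (median 0.39). Egr2 had 2.17, 2.82 and 2.67 CPM with the deleted label, against 0.527, 0.506 and 0.584 CPM with the vehicle label, or 2.23 ± 0.20 (SE) higher on the log2 scale (edgeR, adjusted p = 3.17e-06). On the TPM scale Egr2 was not called (limma on log2(TPM + 1), 0.23, adjusted p = 0.216). Atf3, a stress-induced factor, rose by 1.71 on the log2 scale, whereas Srf itself was not called (0.05, adjusted p = 0.516 by edgeR). Along the ERK5 and MEF2 route to Klf2 and Klf4, 1 of 7 genes was higher and 3 were lower (median -0.03). The kinase gene Map3k2 was higher (0.34), and Mef2c (-0.51), Mef2a (-0.50) and Mapk7, which encodes ERK5 (-0.23), were lower.

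Of 10 tested genes of the glucocorticoid receptor list 3 were higher and 7 lower (median -0.20). The receptor gene Nr3c1 fell by 0.17 on the log2 scale, and Cebpd by 0.76 and Dusp1 by 0.50, whereas the metallothionein genes Mt2 (1.67) and Mt1 (0.55), which metals also induce, were higher. Of 12 genes of the early TGF-beta response 6 were higher and 5 lower (median 0.13), with Skil (0.68) higher and Id3 (-0.81) and Ctgf (-0.68) lower.

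Of 20 tested genes that the literature reports as KLF targets 11 were higher and 5 lower (median 0.38). Ccl5, the chemokine gene linked to Klf13 in human T cells, had 75.3, 77.3 and 95.4 CPM with the deleted label, against 3.76, 2.87 and 3.0 CPM with the vehicle label, or 4.70 ± 0.09 (SE) higher on the log2 scale (edgeR, adjusted p = 3.05e-12). Nos2, the inducible nitric oxide synthase gene, had 8.51, 10.0 and 9.46 CPM with the deleted label, against 3, 3 and 0 counts in those labelled vehicle (adjusted p = 1.91e-09 by edgeR). Plau (-1.19) and Col1a1 (-0.61), a protease gene and a collagen gene, were lower. The list holds genes bound or controlled by many other factors, and it shares Tgfb1 with the TGF-beta list and Col1a1 with the fibroblast markers.

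**Figure D5:**
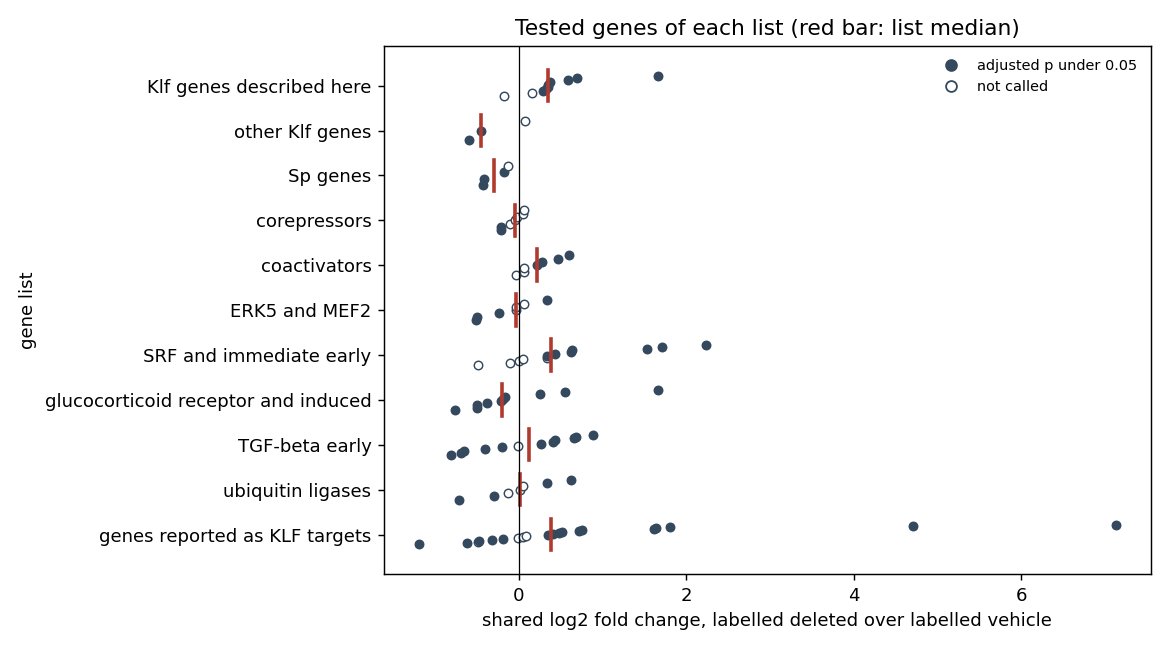
Shared log2 fold change (deleted label over vehicle label) of each tested gene, 1 row per list, with filled points for an adjusted p under 0.05 by edgeR and a red bar at the list median. The SRF and immediate early list and the Klf genes described here have medians of 0.39 and 0.35, and the point farthest right is Nos2, whose vehicle-labelled libraries held 3, 3 and 0 counts.

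Summed markers of other cell types moved with the arms, except those of skeletal muscle. The 6 leukocyte markers summed to 7.18 to 9.25 CPM with the deleted label and 4.66 to 5.26 CPM with the vehicle label. Most of this came from Cd68, at 6.05 to 7.30 CPM with the deleted label and 4.35 to 4.97 CPM with the vehicle label. All 3 leukocyte markers that were tested were higher. Itgam rose most on the log2 scale (5.58), on counts of 29, 16 and 15 with the deleted label against 0, 0 and 1 with the vehicle label. Csf1r rose by 1.30 and Cd68 by 0.48 on the log2 scale. The 9 T cell markers summed to 3.72 to 4.26 CPM with the deleted label and 1.89 to 2.20 CPM with the vehicle label, nearly all of it from Lck, which was the one tested and was higher. The 6 epithelial markers summed to 23.7 to 25.8 CPM with the deleted label and 9.05 to 10.1 CPM with the vehicle label, mostly from Krt18 and Krt8, both higher, with Krt5 at 0 in every library. The 5 endothelial markers summed to 0.916 to 1.37 CPM with the deleted label and 0.176 to 0.292 CPM with the vehicle label, with Pecam1 the one tested and higher, and Tie1 at 0 in every library. The 6 skeletal muscle markers summed to 0.339 to 0.975 CPM with the deleted label and 0.386 to 0.690 CPM with the vehicle label, and the 1 tested, Acta1, was not called. All 6 tested fibroblast markers were lower, with the largest falls on the log2 scale in Col3a1 (-1.33) and Dcn (-0.83). The part of these shifts in the Klf values was not tested.

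The genes whose CPM followed that of Klf4 most closely over the 6 libraries, among 10857 genes averaging 5 CPM or more, were Zfp131, Rgs16 and Sp140, with Pearson's r of 0.9998, 0.9997 and 0.9996 on log2(CPM + 0.5). Sp140 had 14.2, 12.9 and 12.4 CPM with the deleted label, against 2.53, 3.04 and 2.84 CPM with the vehicle label. The log2 fold change was 2.22 for Sp140, 0.85 for Rgs16 and 0.45 for Zfp131, against 1.67 for Klf4. As the 6 libraries fall into 2 arms, 515 genes reached an r of 0.99, and the ranking is a description.

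Calls depended on the test. DESeq2 called 5 of the 10 genes higher, against 15.9% of all genes, and limma on log2(TPM + 1) called 3, Klf4, Klf13 and Klf15, against 10.3% of genes. Klf4 and Klf15 were called higher under every alternative run.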

How the data were processed

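Per the labels' protocols, total RNA was extracted with TRIzol and sequenced after ribosomal RNA depletion with a stranded kit. Each deposited file holds, per transcript, an estimated count and a TPM value made by the authors. The submitters' processing notes name kallisto 0.43.0 and GRCm38, and strand handling is not given in the sources used here. Of 76055 targets, 75049 were joined to GENCODE M21 genes, and the other 1006 (0.393% to 0.410% of counts) were left out. Of 51165 coding targets, 94.2% had the coding length of their transcript, so UTR reads were mostly not counted. Estimated counts were summed per gene and rounded to whole numbers.

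The 6 libraries were fitted with edgeR 4.0.16 (TMM, filterByExpr by arm, quasi-likelihood test, two-sided, Benjamini-Hochberg adjustment over 15933 genes, threshold 0.05), blocked by cell type label, with 2 residual degrees of freedom. A group of label and arm holds 1 library, so no test was made within a pair. As a check of the pairing, the correlation between both libraries' deviations from their arm means was 0.0324 (fibroblast), 0.139 (lymphoma) and 0.141 (sarcoma). The block follows from the study's labels. DESeq2 1.42.0, limma 3.58.1 (log2 of TPM plus a pseudocount), other scalings and filters, no block and leaving out each pair were alternatives. The edgeR fit was run on counts simulated with a common dispersion, no cell type effect and far fewer changed genes than were called in the data. There it recovered 61.2% of changes of 0.5 and 90% of changes of 1 on the log2 scale, and 2.78% of its calls were false. These rates depend on the share of changed genes and were not measured at the share called in these data. A count of 0 was read as up to 3 counts. Floors and intervals account for counting error alone, because PCR duplicates were not identified. Software was R 4.3.3 and Python 3.11.15 with scipy 1.17.1. Promoter sequences are RefSeq's.

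The genes and lists were chosen with earlier results of these data known. The text names the 10 genes, all other Klf and Sp genes, Mdm2, of each list the 2 called genes with the largest rise and the 2 with the largest fall, and the 3 genes nearest to Klf4. Mapk7, Nr3c1, Srf and Acta1 are named outside this rule, after their values were seen, and 1 gene that the rule names is not reported here.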

Additional observations from a re-analysis of the deposited data

How the results depend on the processing

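Over the 10 Klf genes and 11 alternatives, 110 log2 fold changes were compared with those reported. Of these, 83 kept direction and side of the threshold, 23 kept direction but lost the call, 4 gained a call and none reversed. The number of Klf genes called higher was 8 as reported and 7 without any 1 labelled pair, where Klf2 lost its call each time. It was 5 with DESeq2 (Klf2, Klf7 and Klf9 lost) and 3 with limma on log2(TPM + 1), on log2(TPM + 0.1) and on log2(TPM + 1) with no filter. The number called lower was 0 as reported and 1 (Klf3) with no filter on low counts, and 0 to 1 when a pair was left out, the 1 being without the lymphoma pair. Genes called higher and lower numbered 3981 and 3920 as reported, 2541 and 2488 with DESeq2, and 1430 and 872, 1181 and 666, and 1167 and 637 with limma in the 3 forms above, where the split shifts towards higher calls. With a pair left out they lay between 3256 and 3540 and between 3185 and 3949. With no replicate block, 8 Klf genes were called higher, so the pairing changed no call of these genes. Klf13 was called by limma on log2(TPM + 1) (adjusted p 0.0326) and had an adjusted p between 0.0326 and 0.634 over all alternatives. Of 30 ratios within labelled pairs, 7 moved past their counting interval on the TPM scale. The cause of these differences was not tested. Each group holds 1 library, and Klf5 and Klf2 have the fewest counts of the 10 genes. Mdm2 was called higher over protein-coding genes only (adjusted p 0.0210) and with no replicate block (0.0349). Of 510 comparisons for the other 48 genes named, 454 kept direction and side of the threshold, 50 lost the call, 2 gained one and 4 reversed. The reversed ones had not been called: with pairs left out, Klf16 lay between -0.067 and 0.14, Sp2 between -0.29 and 0.016, Srf between -0.011 and 0.073 and Acta1 between -0.074 and 0.30 on the log2 scale.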
